A study of Mus musculus with 5 samples.

Results

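The genes described here were the voltage-gated calcium and sodium channel genes, 34 of the 21911 protein-coding genes on chromosomes 1 to 19, X and Y. Membership of these gene families was the rule and no measured value entered it, but the families were picked with earlier results of these data known. They comprised 24 calcium channel genes (10 pore-forming subunits, 4 alpha2delta, 4 beta and 6 gamma subunits) and 10 sodium channel genes (7 pore-forming and 3 beta subunits). Binding of NEUROD2 was measured by ChIP-Seq, in which DNA fragments bound by a protein are recovered with an antibody and sequenced, in cerebral cortex pooled from untreated wild-type BALB/c littermates at postnatal day 0 (P0). There were 3 NEUROD2 libraries, 1 from each of 3 commercial antibodies (antibody 1, 2 and 3). A library made with an unrelated GFP antibody from the same tissue entered as the control of the peak calling, and an input library was not used here. The pups carried no transgene and received no treatment. Because the tissue was pooled and each antibody gave 1 library, the spread between antibodies covers the antibody and the library, and it is not known whether it also covers variation between mice. The peak lists hold no expression values, so the tissue could not be checked against marker genes. Cortex is a mixture of cell types, and a low score from fewer cells with binding cannot be told apart from weaker binding in each cell.

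Voltage-gated channels open when the membrane depolarizes. Sodium channels carry the rising phase of the action potential, and calcium channels let in the calcium that releases transmitter, shapes firing and signals to the nucleus. Pore-forming subunits (Cacna1 and Scn genes) make the channel, whereas alpha2delta and beta subunits (Cacna2d and Cacnb genes) set how much of it reaches the membrane and how it gates. The gamma subunits listed here (Cacng2, Cacng3, Cacng4, Cacng5, Cacng7 and Cacng8) are better known as TARPs, which traffic and tune AMPA-type glutamate receptors. NEUROD2 is a basic helix-loop-helix (bHLH) transcription factor of cortical excitatory neurons, and factors of this class bind the E-box, CANNTG.

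Each deposited peak carries a MACS score, minus 10 times the log10 of the p of the peak against the GFP library, and no peak scored under 50. A shared site is a region of the deposited table in which all 3 antibodies had a peak, and its deposited score is the sum of their peak scores. A gene was counted as having a peak or site when at least 1 bp of it lay in the gene body or within 10 kb of either end (GENCODE M21, GRCm38/mm10). The 3 lists held between 3164 and 11196 peaks, the longest being that of antibody 2, and the table held 2071 shared sites. Read counts were not in these lists, so the depth behind a score is unknown.

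In all, 11 shared sites lay at 8 of the 34 channel genes, and all 8 were calcium channel genes. Over all protein-coding genes 7.48% had a shared site. To show the DNA that was bound, the central 200 bases are printed for the 8 sites whose centre held no annotated untranslated exon sequence, from the highest deposited score to the lowest. They come from the plus strand of the RefSeq GRCm38.p6 genome, 5′ to 3′, with each E-box in capitals.
Cacna2d2 site at chr9:107456763-107456962: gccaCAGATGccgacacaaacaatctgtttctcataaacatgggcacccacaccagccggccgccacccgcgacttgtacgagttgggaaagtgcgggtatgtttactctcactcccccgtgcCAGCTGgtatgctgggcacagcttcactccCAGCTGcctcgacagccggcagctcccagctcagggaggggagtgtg
Cacna2d3 site at chr14:28958667-28958866: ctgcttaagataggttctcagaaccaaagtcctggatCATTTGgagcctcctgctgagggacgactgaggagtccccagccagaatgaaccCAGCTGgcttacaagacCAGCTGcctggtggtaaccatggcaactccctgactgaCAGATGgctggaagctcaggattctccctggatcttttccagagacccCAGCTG
Cacng4 site at chr11:107791233-107791432: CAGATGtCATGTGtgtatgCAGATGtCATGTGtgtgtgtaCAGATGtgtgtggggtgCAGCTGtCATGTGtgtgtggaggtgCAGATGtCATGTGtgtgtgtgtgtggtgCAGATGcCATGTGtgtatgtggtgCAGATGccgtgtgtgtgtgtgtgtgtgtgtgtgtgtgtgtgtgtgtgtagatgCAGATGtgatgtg
Cacna2d4 site at chr6:119329306-119329505: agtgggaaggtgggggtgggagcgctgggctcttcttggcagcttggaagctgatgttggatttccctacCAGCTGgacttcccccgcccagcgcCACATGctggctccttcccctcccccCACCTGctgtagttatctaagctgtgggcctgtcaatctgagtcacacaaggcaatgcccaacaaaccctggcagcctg
Cacng4 site at chr11:107762169-107762368: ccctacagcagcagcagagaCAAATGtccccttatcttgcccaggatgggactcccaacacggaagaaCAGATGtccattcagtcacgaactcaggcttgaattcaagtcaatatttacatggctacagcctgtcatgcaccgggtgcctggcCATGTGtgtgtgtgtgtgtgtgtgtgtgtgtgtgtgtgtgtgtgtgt
Cacna1c site at chr6:119070923-119071122: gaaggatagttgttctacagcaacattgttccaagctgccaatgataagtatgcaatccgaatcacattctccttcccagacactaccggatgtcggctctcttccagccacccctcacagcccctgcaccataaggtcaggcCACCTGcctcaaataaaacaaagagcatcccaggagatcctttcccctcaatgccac
Cacna1a site at chr8:84635101-84635300: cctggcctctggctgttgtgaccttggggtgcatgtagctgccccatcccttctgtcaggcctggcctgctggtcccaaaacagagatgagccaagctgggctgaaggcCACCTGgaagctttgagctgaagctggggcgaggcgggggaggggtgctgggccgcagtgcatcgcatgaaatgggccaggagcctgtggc
Cacna1c site at chr6:118967043-118967242: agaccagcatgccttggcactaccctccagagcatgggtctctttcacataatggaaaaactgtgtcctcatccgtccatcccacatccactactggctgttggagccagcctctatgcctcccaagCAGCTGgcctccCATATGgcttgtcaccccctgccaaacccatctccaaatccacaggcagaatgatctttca

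The E-boxes of the printed Cacna2d2, Cacna2d3 and Cacna2d4 sites stood apart from each other in sequence of which the reference masks 0%, 0% and 25% as repeats, and included CAGCTG in all of these sites and CAGATG in the first pair. The upper Cacng4 site, in contrast, was a tandem array mostly of CAGATG and CATGTG, with a single CAGCTG, interrupted near its end by a run of TG dinucleotides of 40 bases. The lower Cacng4 site ended in a TG run of 45 bases. The other 3 sites, at Cacnb3, Cacna2d4 and Cacna1d, had 135, 168 and 200 of the central 200 bases in untranslated exons of annotated transcripts, and are described without sequence. The Cacna2d4 site among them had 0 E-boxes in its central 200 bases.

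Among the alpha2delta genes, shared sites lay at 3 of 4, 4 sites in all, where genes of similar length would give 0.98 genes, and the highest scoring of the 11 sites was at Cacna2d2. Genes of similar length were, for each channel gene, the 200 protein-coding genes nearest in gene body length, with the channel genes left out. This is a description and carries no p. The site of Cacna2d2 (chr9:107456522-107457204), in intron 2 of ENSMUST00000010210 and 57251 bp downstream of the start of that transcript, had a deposited score of 3171.22 and ranked 39 of the 2071 shared sites. Its peaks scored 1078.92 with antibody 1, 1481.87 with antibody 2 and 610.43 with antibody 3. All 3 antibodies placed it high among the merged sites that had a peak of each, at rank 42, 40 and 34. The next highest site, of Cacna2d3, had a score of 860.84 and ranked 559, so the Cacna2d2 site stood well above the other channel sites.

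Cacna2d3 is the longest of the channel genes (816.9 kb), and its shared site (chr14:28958469-28959065) lay far downstream, in intron 31 of ENSMUST00000022567. The peaks there scored 241.31, 488.64 and 130.89 with antibody 1, 2 and 3. It held 5 E-boxes in its central 200 bp, a number that 9.03% of the shared sites reached or passed. Of 200 genes of similar length to Cacna2d3, 40.5% had a shared site, which makes a single site in this gene a weak departure from its length.

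Cacna2d4, a subunit best known from retinal photoreceptors, had a pair of shared sites in intron 26 of ENSMUST00000037434. The first (chr6:119330316-119331082) had peaks of 185.61, 294.64 and 77.69, and its midpoint was 70 bp upstream of an internal Cacna2d4 transcription start site (TSS) and 58 bp from a TSS of Lrtm2, a gene nested at this position. The second (chr6:119329131-119329681) had peaks of 101, 297.7 and 127.29 and lay 202 bp from a TSS of Lrtm2. The deposited table names both genes for both sites. These sites therefore cannot be assigned to Cacna2d4 rather than Lrtm2 from position. Cacna2d1, which like Cacna2d2 encodes a subunit that binds gabapentin, had 1 peak of antibody 1 alone, with a score of 50.35, just above the lowest score in the lists.

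**Figure D1:**
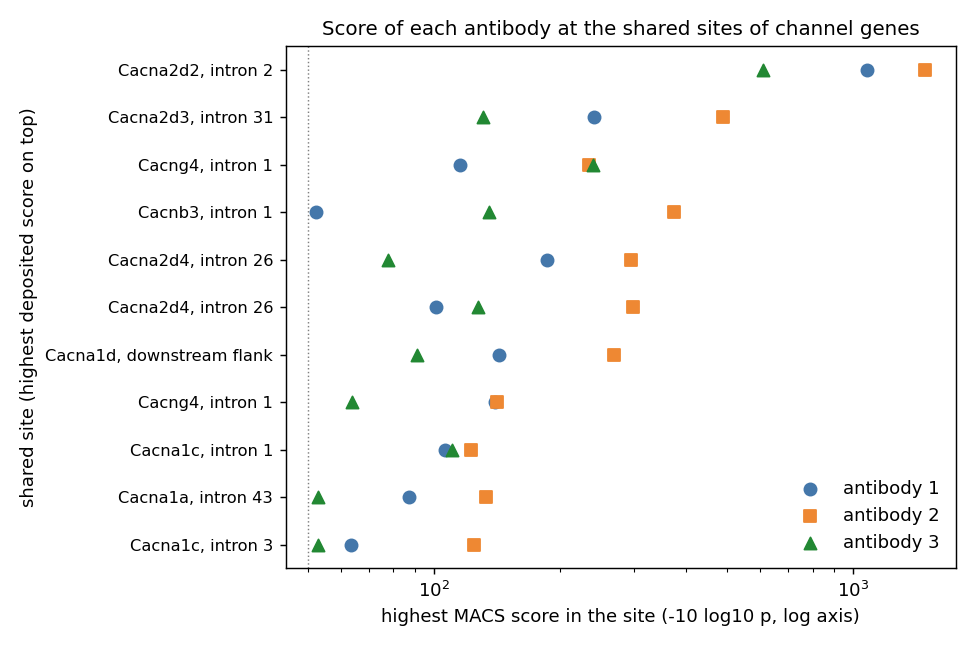
Highest MACS peak score of each antibody (x axis, minus 10 log10 p, log scale) at each of the 11 shared sites of channel genes (y axis, ordered by deposited score), with the dotted line at the lowest score in the lists, 50. The Cacna2d2 site was the highest with every antibody, and antibody 2 gave the highest score in 10 of the 11 sites.

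Among the pore-forming calcium channel genes, 3 of 10 had a shared site, against 1.83 by length. Cacna1c, which encodes the L-type channel CaV1.2, had 4 peaks of antibody 1, 9 of antibody 2 and 2 of antibody 3 in 609.2 kb, and 38% of genes of similar length had a shared site. They formed 10 merged sites (peaks of the 3 lists joined where they shared at least 1 bp), of which 2 were shared by all antibodies. The site in intron 1 of ENSMUST00000186889 (chr6:119070834-119071212) scored 106.35, 122.46 and 110.73, the most even scores of the 11 sites. The site in intron 3 (chr6:118966900-118967385) scored 63.34, 124.87 and 52.83 and was the lowest ranked of the 11, at 1981. The deposited table calls both intergenic, whereas in GENCODE M21 and in the RefSeq annotation of the same build the gene, which runs leftward from 119196418 in GENCODE and 119197384 in RefSeq, spans them. The highest peak of antibody 2 in this gene, with a score of 245.74, lay 517 bp upstream of an internal TSS and had no counterpart in the other lists. A further antibody 2 peak of 97.76 was 39 bp from a TSS of Dcp1b, which overlaps the 5′ end of Cacna1c on the other strand.

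Cacna1d, the other neuronal L-type pore, had a shared site (chr14:30038401-30038942) with peaks of 143.23, 268.29 and 91.35, the midpoint of which lay 1267 bp beyond the 3′ end of the gene. It overlapped an exon of Chdh, a choline dehydrogenase gene, and the deposited table gives it to Chdh. Cacna1d counts as having a shared site only through the 10 kb flank. Inside the gene body it had antibody 2 peaks of 108.26, 79.41 and 72.23, and a site of 68.8 with antibody 2 and 61.25 with antibody 3 in intron 8. Cacna1a, the P/Q-type pore that drives transmitter release at many central synapses, had a shared site in intron 43 of ENSMUST00000121390 (chr8:84634913-84635489), near the 3′ end. Its scores were 87.22, 133.36 and 52.9, with rank 1922, so it was among the weaker shared sites.

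The remaining pore-forming calcium genes had no shared site. Cacna1b, the N-type pore, had a region over its 5′ end with a peak of 162.88 for antibody 2 and of 50.03 for antibody 3, but none for antibody 1. Cacna1s, the pore of skeletal muscle, had peaks of antibodies 1 and 2 in both its sites, scoring 80.88 and 109.38 at 1067 bp upstream of the gene, and 85.68 and 147.94 in intron 28. The upstream site was nearer to a TSS of Ascl5, at 879 bp. Among the T-type pores, Cacna1g had a site of antibodies 1 and 2 (55.75 and 96.16) 368 bp from an internal TSS, and an antibody 2 peak of 73.92 in intron 1. Cacna1h had only an antibody 2 peak of 55.81 and Cacna1i only an antibody 3 peak of 51.08, 131 bp upstream of its TSS. Of genes similar to these 3 in length, 41% to 51% had a peak of any antibody and 8.5% to 9% a shared site. The antibody 2 peak counted for Cacna1f, the retinal L-type pore, scored 190.79 and lay 170 bp from the TSS of its neighbour Syp, which encodes synaptophysin. Cacna1e, the R-type pore, had no peak of any antibody in 493.8 kb, whereas 79.5% of the 200 genes of similar length had at least 1.

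Beta subunits are cytoplasmic proteins that carry the pore to the membrane. Cacnb3 had a shared site over its promoter, with the midpoint 35 bp downstream of a TSS (chr15:98634391-98635213, in intron 1 of ENSMUST00000109150 and in an exon of another transcript). The antibodies were least even here, at 52.46, 374.37 and 135.7, and antibody 1 was close to the lowest score in its list. The centre of the site had a GC content of 81% and no E-box. At 13.69 kb Cacnb3 is short, and 7% of genes of similar length had a shared site. Cacnb1 had antibody 2 peaks of 64.88 and 61.62, the second over its promoter, and no peak of the other antibodies. Cacnb2 and Cacnb4 had no peak, where 74.5% and 68.5% of genes of similar length had at least 1.

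Among the gamma subunits, Cacng4 had 4 merged sites, all in intron 1 of ENSMUST00000021066, and 2 of them were shared. At the upper one, 3224 bp downstream of the TSS (chr11:107791062-107791603), antibody 1 had a pair of peaks summing to 174.36, antibody 2 scored 234.78 and antibody 3 scored 239.89. It was the only one of the 11 sites where antibody 2 was not highest. The lower one (chr11:107761993-107762544) scored 139.73, 141.6 and 63.96. The other two Cacng4 sites had peaks of antibodies 1 and 2, scoring 82.14 and 281.83 at chr11:107784026-107784590 and 63.51 and 80.85 at chr11:107791621-107791982. E-box number set this gene apart from the other channel genes, with 13, 16 and 12 in the central 200 bp of 3 of its 4 sites, against a median of 2 over all shared sites, and only 0.773% of the shared sites had 13 or more. In the upper shared site 91% of the central 200 bases were masked as repeats in the reference, a share of at least 50% being found in 2.46% of the shared sites. In the sites with 16 and 12 E-boxes 9.5% and 44.5% were masked. The part of repeat sequence in these peaks was not tested.

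The TARPs Cacng2 (stargazin), whose loss underlies the stargazer mouse, and Cacng3 each had a single site of antibodies 1 and 2 in intron 1, with scores of 91.82 and 99.99, and of 54.13 and 54.53. Cacng5 had an antibody 2 peak of 96.31 at 4962 bp upstream, and Cacng7 and Cacng8, which lie side by side on chromosome 7, had none.

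Of the 10 sodium channel genes none had a shared site, where genes of similar length would give 1.16. A peak of any antibody was found at 3 of them, against 4.72 by length, and each of the 3 had 1 merged site. Scn2a, which encodes NaV1.2, the main sodium channel of immature excitatory axons, had a site in intron 11 of ENSMUST00000028377 (chr2:65690500-65690719), scoring 52.01 with antibody 1 and 61.43 with antibody 2. Scn3a (NaV1.3), an embryonic and early postnatal channel, had an antibody 2 peak of 69.03, 565 bp from its TSS, and Scn2b, a beta subunit, an antibody 2 peak of 56.01 in intron 1. All these scores, from 52.01 to 69.03, were near the lowest score in the lists. No antibody gave a peak at Scn1a (NaV1.1), Scn8a (NaV1.6), Scn9a, Scn10a, Scn11a, Scn3b or Scn4b. Of these, Scn10a and Scn11a are known from sensory neurons and Scn1a from inhibitory interneurons. Any link between expression and peaks was not tested. Scn1a and Scn8a, of 170.1 and 176.1 kb, lacked any peak where 55% and 59% of genes of similar length had one.

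**Figure D2:**
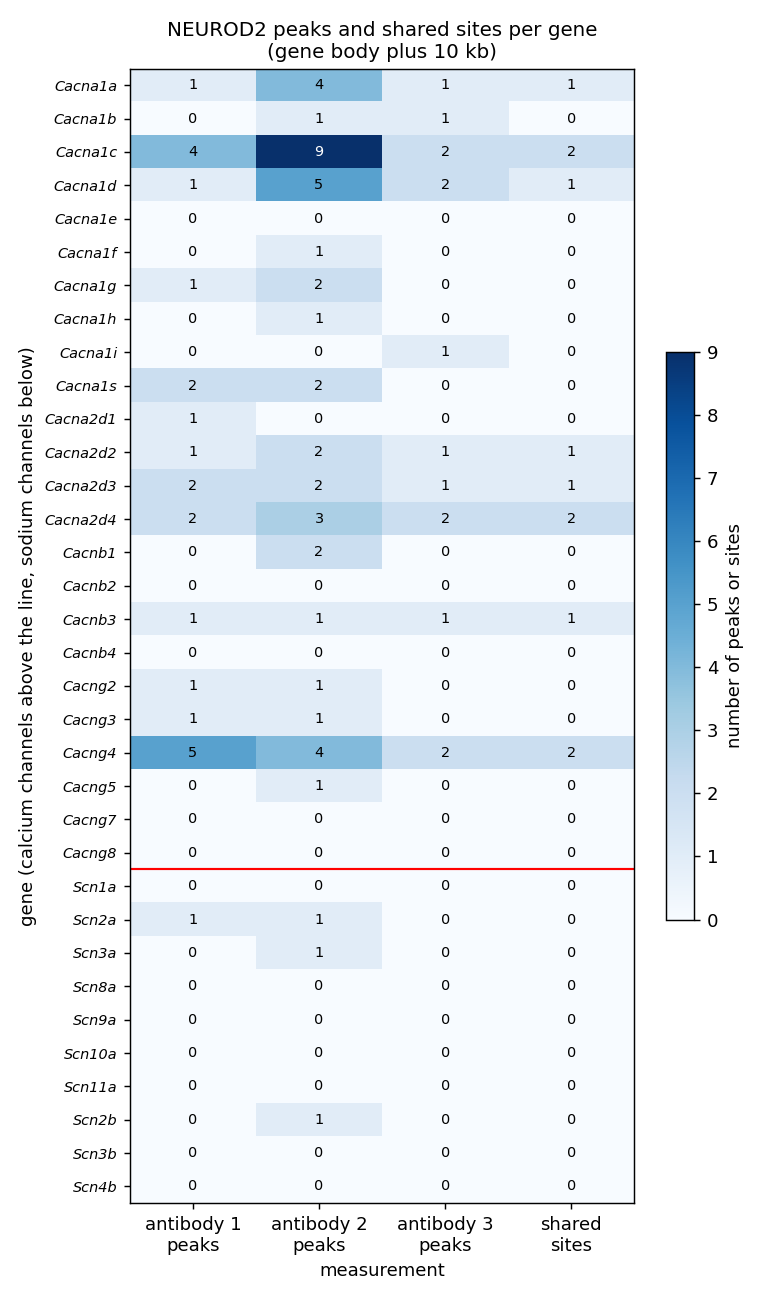
Number of peaks of each antibody and of shared sites (columns) in the gene body plus 10 kb of each of the 34 channel genes (rows), with calcium channel genes above the red line and sodium channel genes below it. Cacna1c had the highest count, 9 peaks of antibody 2, and 12 genes, 5 calcium and 7 sodium, were at 0 throughout.

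Set against all protein-coding genes, the channel genes must be read beside their length, since their median gene body was 111 kb and that of all genes 17.4 kb. A shared site was found at 8 of 34 channel genes (23.5%), while 7.48% of all protein-coding genes had one and genes of similar length would give 5.17 genes (15.2%). Antibody 1 had a peak at 14 channel genes (15.4% of all genes, and 10.1 genes by length), antibody 2 at 20 (33.1% of all genes, and 16.7 by length) and antibody 3 at 10 (11.1% of all genes, and 7.18 by length). A peak of any antibody was found at 22 (35.2% of all genes, and 17.8 by length). The number of channel genes with a peak was 14.7 ± 5.03 (SD, n = 3 antibodies), and its ratio to the number by length was 1.33 ± 0.113. The share of channel genes with a shared site was therefore above that of all genes, and part of this gap was common to other genes of their length.

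The calcium and sodium channel genes lay on opposite sides of the numbers given by length. Calcium channel genes had a shared site in 8 of 24 (33.3%), against 4.01 by length. The 24 include the 6 TARPs, of which 1 had a shared site, against 0.49 by length. Among the 8, the sites of Cacna1d and Cacna2d4 overlapped other genes, Chdh and Lrtm2. Calcium channel genes had a peak of antibody 1 in 13 genes (7.67 by length), of antibody 2 in 17 (12.3) and of antibody 3 in 10 (5.52), ratios of 1.69, 1.39 and 1.81, or 1.63 ± 0.219 (SD, n = 3). For sodium channel genes the numbers were 1 (2.38 by length), 3 (4.46) and 0 (1.67), and the ratio was 0.364 ± 0.34, below 1 with each antibody. Many sodium channel genes are not separate regions. Scn1a, Scn2a, Scn3a and Scn9a lie close together on chromosome 2, and Scn10a near Scn11a and Scn2b near Scn4b on chromosome 9. Some calcium channel genes are neighbours too, such as Cacng4 and Cacng5 on chromosome 11. Both groups have long genes, with medians of 113 and 111 kb. Their longest genes differ, however, at 816.9 kb for calcium (Cacna2d3) and 176.1 kb for sodium channel genes (Scn8a).

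**Figure D3:**
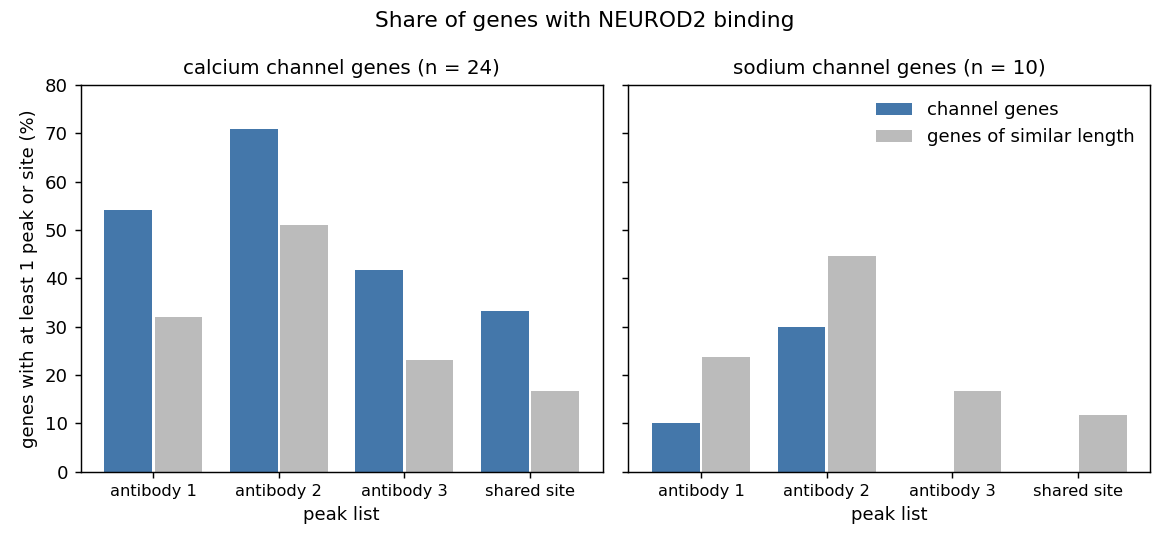
Percentage of calcium (left, n = 24) and sodium (right, n = 10) channel genes with at least 1 peak of each antibody or a shared site (blue), beside the percentage among genes of similar length (grey). The calcium channel genes lay above and the sodium channel genes below the genes of similar length with every antibody.

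Counted over sequence, the calcium channel windows (5.34 Mb) held 0.431, 0.787 and 0.262 peaks per 100 kb with antibody 1, 2 and 3, and the sodium channel windows (1.18 Mb) held 0.0848, 0.254 and 0. The windows of all protein-coding genes held 0.275, 0.654 and 0.175. The calcium density was higher than the sodium density with 3 of 3 antibodies, by 0.38 ± 0.138 peaks per 100 kb (SD, n = 3). An exact two-sided sign-flip permutation test over the antibodies gave p = 0.25, the smallest p that 3 antibodies allow, so this design could not reach significance. The 3 lists share the GFP control library and perhaps the tissue pool, so agreement between them is not that of independent samples. For shared sites the calcium windows held 11, or 0.206 per 100 kb (95% exact Poisson interval 0.103 to 0.369, counting error only), and this interval holds the 0.113 per 100 kb of the windows of all protein-coding genes. The 0 shared sites of the sodium windows allow up to 0.254 per 100 kb by the limit of 3 counts, and up to 0.313 by the upper end of the same two-sided Poisson interval. Both are above the calcium density, and 2.43 sites would lie there at that density. A difference in shared sites between calcium and sodium channel genes was thus not detectable.

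Over the whole family, 49 merged sites were found. Of these, 27 had 1 antibody, 11 had 2 and 11 had 3, so 22.4% carried all antibodies, compared with 16.5% of all 12637 merged sites. Antibody 2 alone accounted for 23 of the 27 sites with 1 antibody. The calcium channel genes held 46 of the 49, and the sodium channel genes 3. Of the 49, 11 had their midpoint within 1000 bp of a TSS of their own gene and 5 lay in the flanks. Counting a TSS of any annotated gene, 17 (34.7%) did, against 38.6% of all merged sites, and 3 of the 11 shared sites (27.3%), against 31.1% of all shared sites, so closeness to starts was near that of all sites. Among the 11 shared sites, those of Cacnb3 and of Cacna2d4 beside Lrtm2 were the pair within 1000 bp of a TSS of the channel gene itself, while the second Cacna2d4 site lay within 1000 bp of a TSS of Lrtm2 only. Of the 27 channel genes with an entry in the RefSeq promoter table (250 bases before to 50 after a start), Cacna1b, Cacna1c, Cacna1i, Cacnb1 and Cacnb3 had a site of any antibody over a promoter (18.5% of these genes, and 10.4% of all genes in the table), and the one at Cacnb3 carried all 3 antibodies (1.54% of all genes in the table). An E-box, CANNTG, which reads the same on both strands, was in 68.4% of the 38 promoter entries of channel genes and in 72.3% of all 32851 entries.

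**Figure D4:**
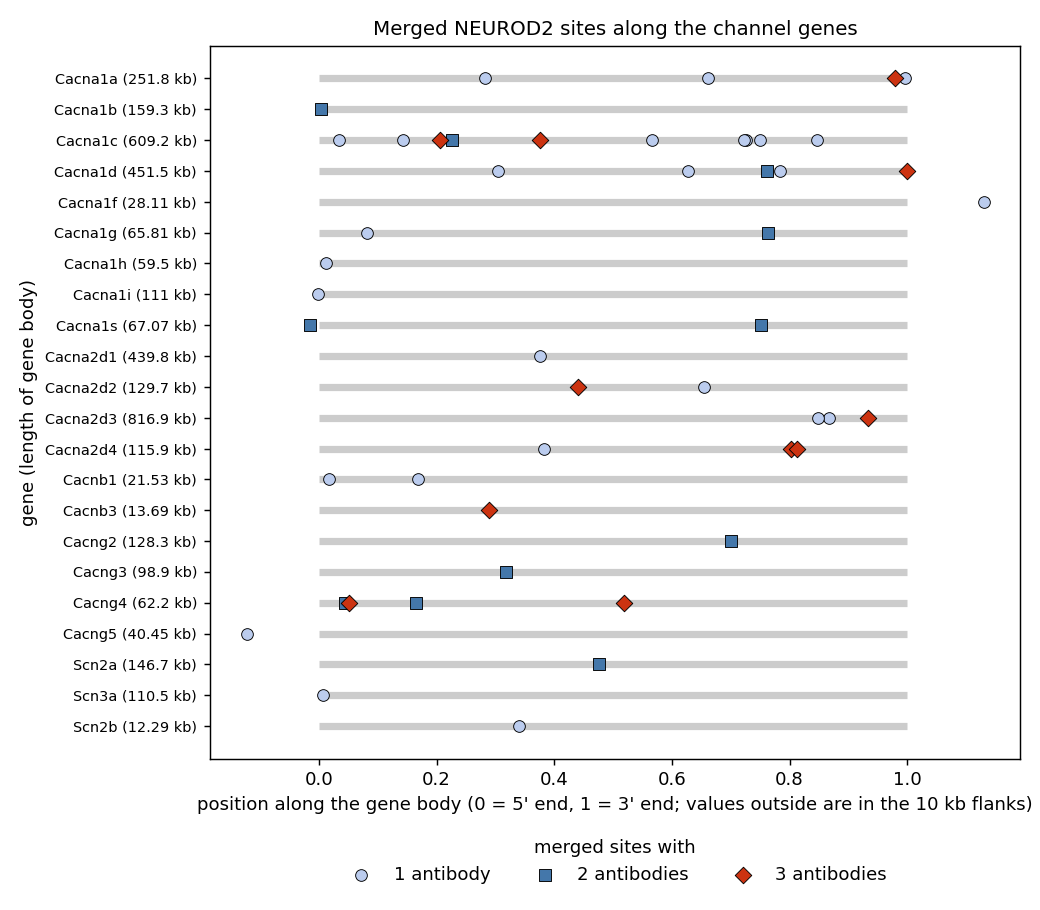
Position of the 49 merged sites (points) along the gene bodies (grey bars, 5′ end at 0 and 3′ end at 1) of the 22 channel genes with any peak, with the color and shape giving the number of antibodies with a peak. Sites with all antibodies lay at any depth in the gene, from the first intron of Cacng4 to the 3′ end of Cacna1a and just beyond that of Cacna1d.

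The 11 shared sites of channel genes were ordinary members of the shared table in most features. Their median score was 525.99, and 3 of them were above the median of all shared sites, 573.06. Their median length was 552 bp, against 528 bp, and the median GC content of the central 200 bp was 55.5%, against 56%. Antibody 2 gave the highest score in 10 of the 11, as it did in 85% of all merged sites with 3 antibodies, and antibody 3 the lowest in 7, against 81.7%. The central 200 bp held a median of 2 E-boxes, as in all shared sites, with a range from 0 to 13. CAGCTG was present in 45.5% of the channel sites and 42% of all shared sites, and CAGATG in 45.5% and 54.7%. The mean number of E-boxes was 3 in the centre and 1.5 in the windows 2000 bp to either side, but this contrast rested on Cacng4, since the 9 sites of the other genes had 1.89 in the centre and 1.67 in the windows. Over all shared sites the means were 2.45 and 1.15.

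**Figure D5:**
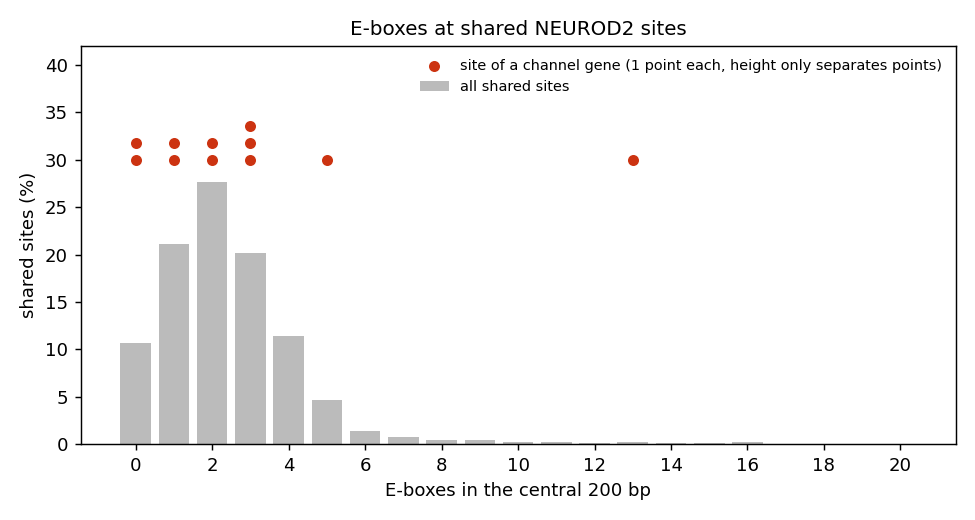
Number of E-boxes (CANNTG) in the central 200 bp of all shared sites (grey bars, percent of sites) and of the 11 shared sites of channel genes (red points, whose height only separates them). The channel sites lay between 0 and 5 E-boxes, except the upper Cacng4 site with 13.

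Genes that work with these channels were counted from a list of 18 that bind, anchor or regulate them or belong to the related NALCN leak channel. A shared site lay at 7 of them (38.9%), where genes of similar length would give 3.83 and 7.48% of all genes had one. Without the 10 kb flank 5 of them had one, and the positions of these sites relative to other genes were not described. Cabp1, a calmodulin-like regulator of calcium channels, had a shared site with a deposited score of 1028.71. Rimbp2, which links presynaptic calcium channels to the release machinery, had a pair, of 977.92 and 251.22. Of the intracellular FGF-like proteins that bind sodium channels, Fgf11 had a site of 924.25 and Fgf12 one of 444.62, while Fgf13 and Fgf14 had no peak of any antibody. Ank2, an ankyrin of the axon, had a site of 377.6, whereas Ank3, the ankyrin that gathers sodium channels at the axon initial segment, had 1 peak of antibody 2 and 2 of antibody 3 but no shared site. Nalcn, the pore of a sodium leak channel, had a site of 484.1 and its partner Unc80 one of 413.51, while Unc79 had 1 peak of antibody 2. Rims1, Rims2, Sptbn4, Stac, Rem2 and Gem had no peak, and Stac2 had 1 of antibody 2.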

How the data were processed

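NEUROD2 ChIP-Seq was analysed with 3 antibodies, taken as 3 replicates, with 1 library each. The authors aligned the reads to mm10 with Bowtie, ran MACS on each antibody with the GFP library as control, and deposited 1 score per peak and a table of shared sites. The deposited score of a shared site was the sum of the scores of its peaks wherever its limits matched those of peaks merged here (2051 of 2071 sites). Scores were not scaled between antibodies, depth is unknown, and lists grow with depth, so counts were given for each antibody.

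From these files, peaks were assigned to GENCODE M21 gene bodies with flanks of 10 kb, and compared with the 200 genes nearest in length. Intervals are 95%. All channel genes were described, and sequences were printed for up to 10 of their shared sites, leaving out those with untranslated exons in the centre. The members and lists were chosen with earlier results of these data known. Procedures were tested on simulated data. Alternatives concerned the flank, score, merging, overlap, annotation, number of length neighbours and leaving out each antibody. Tools were scipy 1.17.1, pandas 2.3.3 and numpy 2.4.6 in Python 3.11.15, with figures from matplotlib 3.10.9.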

Additional observations from a re-analysis of the deposited data

How the results depend on the processing

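Counts of bound channel genes depended on the score threshold and on how many antibodies had to have a peak. With peaks of a score of at least 100, shared sites fell to 5, in 5 channel genes (0.147 sites per gene), all calcium channel genes (Cacna1c, Cacna2d2, Cacna2d3, Cacna2d4 and Cacng4), none lay within 1000 bp of a TSS of its channel gene, the mean number of genes with a peak of an antibody was 7.67, and 4 of the partner genes had a site. When a peak of at least 2 antibodies sufficed, there were 22 sites (0.647 per gene) at 14 genes, 13 calcium and 1 sodium (Scn2a), with 4 sites within 1000 bp of a TSS of their gene. With the same number of highest scoring peaks from each antibody (3164), chosen after seeing the data, the mean number of genes with a peak was 9.33. Leaving out each antibody in turn gave 8 to 13 genes (8 to 12 calcium, 0 to 1 sodium), 11 to 20 sites (0.324 to 0.588 per gene) and 2 to 3 sites within 1000 bp of a TSS of their gene, the highest values coming without antibody 3, which had the fewest peaks. The ratio to genes of similar length was 1.55 and ranged from 1.43 to 1.53 without 1 antibody, fell to 1.21 with flanks of 50 kb and rose to 1.9 at a score of at least 100. Also run after seeing the data, the ratio of genes with a peak to genes of similar length, 1.63 for calcium and 0.364 for sodium channel genes, ranged from 1.54 to 1.75 and from 0.21 to 0.546 without 1 antibody, and from 1.46 to 1.81 and from 0 to 0.527 under the other alternatives, the sodium ratio being 0 both at a score of at least 100 and with the same number of peaks from each antibody. The count of 3 alpha2delta genes, likewise run after seeing the data, was the same under the alternatives of flank, score, merging, midpoint and left-out antibody, and the share of merged sites with all antibodies was not recomputed. The density difference between calcium and sodium windows was 0.304 to 0.439 peaks per 100 kb without 1 antibody and 0.212 at a score of at least 100. The deposited table's own gene names, also tried after seeing the data, gave 6 channel genes. The ratios to genes of similar length and the density difference kept their direction under these alternatives, whereas a count has no direction to change. The other alternatives (no flank, assignment by midpoint, merging by own rule, 100 length neighbours, longest transcript, whole sites for E-boxes) kept the summary counts within 1.5 times. Groups of samples could not be compared, as only NEUROD2 had peak lists. The windows of calcium and sodium channel genes were instead compared as pairs within each antibody. A gene without a peak may carry binding below the threshold, which the lists cannot show.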
